A study of Mus musculus with 22 samples.

Results

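The actin cytoskeleton and contractile genes described here are 39 genes, taken by exact gene symbol from the 55740 gene IDs of the deposited values, without reference to their levels. They encode actins, proteins that bind and stiffen actin filaments, myosins, intermediate filament proteins and proteins of focal adhesions. Of these, 16 are read as smooth muscle and striated contractile genes and 23 as general cytoskeleton genes that most cells use. All 39 were found once in the hepatocyte values and once in the stellate cell values.

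Actin monomers assemble into filaments, which myosin II motors slide past each other and which alpha-actinins, filamins and fascin tie into bundles and networks. Tropomyosins, calponins, caldesmon and transgelins lie along the filament and set how myosin and other proteins reach it, and talin, vinculin and zyxin couple filament bundles to integrins. Many of these genes are transcribed under serum response factor (SRF), which binds a DNA element called the CArG box. Its cofactors, the myocardin-related transcription factors, are held in the cytoplasm by actin monomers. In liver, hepatocytes carry a cortical network of cytoplasmic actin. Stellate cells, which store vitamin A beside the sinusoid, take on smooth muscle isoforms such as alpha smooth muscle actin (Acta2) when they become myofibroblasts in culture or in injury.

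RNA was sequenced from primary liver cells of wild-type C57BL/6 mice on a chow diet. The 22 libraries comprised hepatocytes given 100 uM deferoxamine (DFO, a drug that binds iron), 6 libraries, control hepatocytes, 6 libraries, stellate cells given 100 uM iron, 5 libraries, and control stellate cells, 5 libraries. Controls received placebo. Hepatocytes were kept on collagen in Williams Medium E and stellate cells in DMEM. In all 4 groups cells were plated for 24 h and then treated for 24 h. The labels do not say whether the libraries of a group came from separate animals or cultures, so a p-value here speaks for the variation among these libraries, part or all of which can be technical. The comparisons ask how hepatocytes respond to iron removal and stellate cells to added iron, and each cell type was tested within its own values. A library's level of a gene is given as CPM, the gene's count scaled to a common library total with TMM factors, and levels of different genes are compared only in FPKM, which divides by exonic length. A gene is called where edgeR's quasi-likelihood test over all genes gives a Benjamini-Hochberg adjusted p under 0.05.

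Each hepatocyte library held 19342490 to 41839154 counts, and each stellate library 12058226 to 32067635. Hepatocyte libraries held Alb, the albumin gene, at 3684 to 4395 FPKM with DFO and 3003 to 3529 FPKM in controls. Alb does not stand for all hepatocyte markers: of 10 tested in these libraries, 3 were higher and 5 lower with DFO (median log2 change -0.14). Stellate libraries held Alb at 12.2 to 36.8 FPKM with iron and 30.4 to 61.7 FPKM in controls. Lrat, which makes the retinyl esters that stellate cells store, was at 0 to 4.86 CPM in iron libraries and 17.4 to 35.1 CPM in control libraries. Some libraries stood apart in the length of the genes that held their counts. Averaged over counts, the exonic length of the genes was 5.61, 5.57, 4.27, 5.16 and 4.02 kb in iron libraries 1 to 5, against 5.63, 5.62, 7.23, 5.69 and 5.62 kb in stellate control libraries 1 to 5. In hepatocytes it was 4.73 kb in DFO library 6, 5.02 to 5.36 kb in the other DFO libraries and 5.04 to 5.30 kb in controls. The members followed the same order. Over the 39 members, the ratio of iron libraries 3 and 5 to iron libraries 1, 2 and 4 fell with exonic length (Spearman's rank correlation -0.70), the ratio of stellate control 3 to the other controls rose with it (correlation 0.84), and over 35 members the ratio of DFO library 6 to the other DFO libraries fell with it (correlation -0.78). These correlations are across genes that share 1 set of libraries and are given as a description. DFO against control libraries as groups gave a correlation of 0.062. Stellate calls are therefore given with all 10 libraries and with 7, without iron 3, iron 5 and control 3; among those 7, the ratio of iron to control still had a correlation of -0.56 with length, and -0.33 without iron 4 as well.

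**Figure D1:**
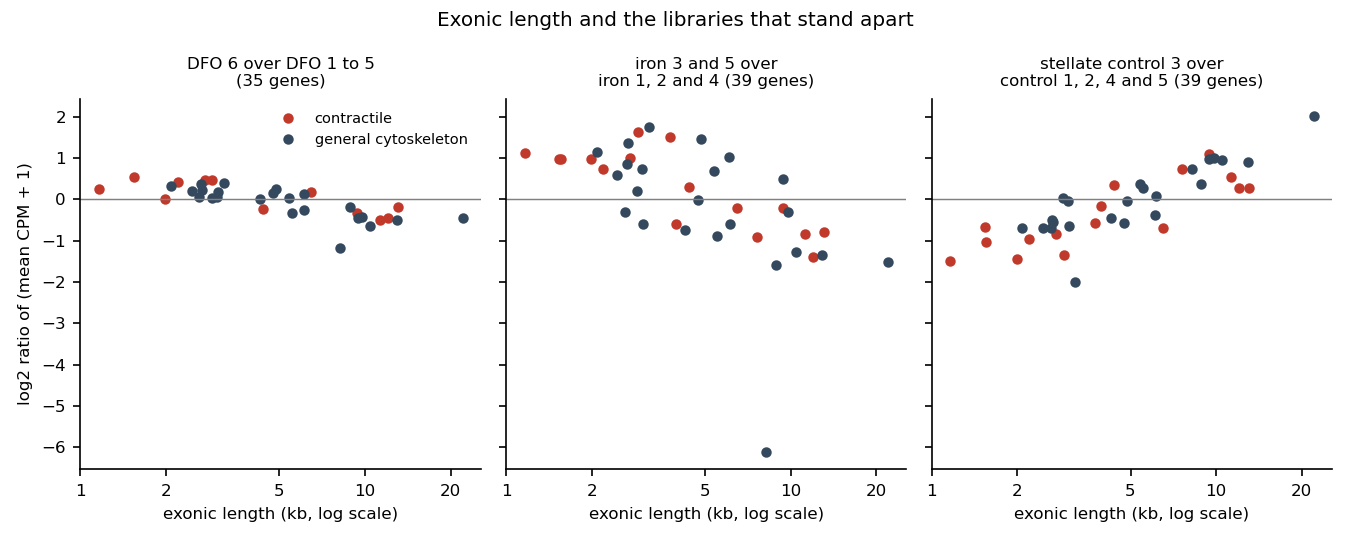
Log2 ratio of (mean CPM + 1) of the libraries that stand apart over the other libraries of the same group (vertical axis) against exonic length in kb (log scale), 1 point per member gene; red points are contractile genes and dark points general cytoskeleton genes. Long genes lie low in DFO library 6 and in iron libraries 3 and 5 and high in stellate control 3; the lowest point is Vcl at -6.12.

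The promoters of the members bear on SRF. A CArG box, looked for by its consensus on both strands (the consensus is its own reverse complement) from 250 bases before to 50 after the start of each gene in RefSeq (GRCm38.p6), was found in 7 of the 35 members with an entry (20%), against 488 of 27025 genes (1.81%) and 535 of 32851 promoters (1.63%) in the same table. Actb, Actg2, Myh11 and Tagln have no entry in that table. The 7 matches are shown because they precede genes that differed in direction in the same libraries; capitals mark the CArG box, and 5′ to 3′ runs towards the gene.
Acta1: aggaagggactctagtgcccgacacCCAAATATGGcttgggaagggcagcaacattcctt
Actg1: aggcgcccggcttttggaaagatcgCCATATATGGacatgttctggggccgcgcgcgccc
Cnn2: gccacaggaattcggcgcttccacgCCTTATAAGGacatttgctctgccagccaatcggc
Myl6: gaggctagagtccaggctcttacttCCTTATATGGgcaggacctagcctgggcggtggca
Myl9: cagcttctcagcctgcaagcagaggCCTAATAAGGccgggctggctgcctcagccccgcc
Srf: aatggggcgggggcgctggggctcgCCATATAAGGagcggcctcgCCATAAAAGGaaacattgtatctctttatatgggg
Vcl: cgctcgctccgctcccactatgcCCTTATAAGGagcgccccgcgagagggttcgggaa
They lie at chr8:123894814-123894873, minus strand (Acta1), chr11:120348551-120348610, minus strand (Actg1), chr10:79988519-79988578, plus strand (Cnn2), chr10:128493025-128493084, minus strand (Myl6), chr2:156775278-156775337, plus strand (Myl9), chr17:46556190-46556269, minus strand (Srf) and chr14:20929148-20929205, plus strand (Vcl). The box began 73 bases before the start of Acta1, 90 before Actg1, 56 before Cnn2, 50 before Myl6, 161 before Myl9, 82 and 62 before Srf and 227 before Vcl. With DFO, hepatocyte transcripts of Acta1 and Srf rose, those of Cnn2 and Myl9 fell, and Actg1, Myl6 and Vcl were not called. With iron, in the 7 stellate libraries, Acta1, Actg1 and Srf rose, Vcl fell, and Cnn2, Myl6 and Myl9 were not called. The match says only that these letters stand in this window. Each match reads CC, then only A and T, then GG. Boxes that depart from this consensus were not counted, so a member without a match may still hold such a box.

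**Figure D2:**
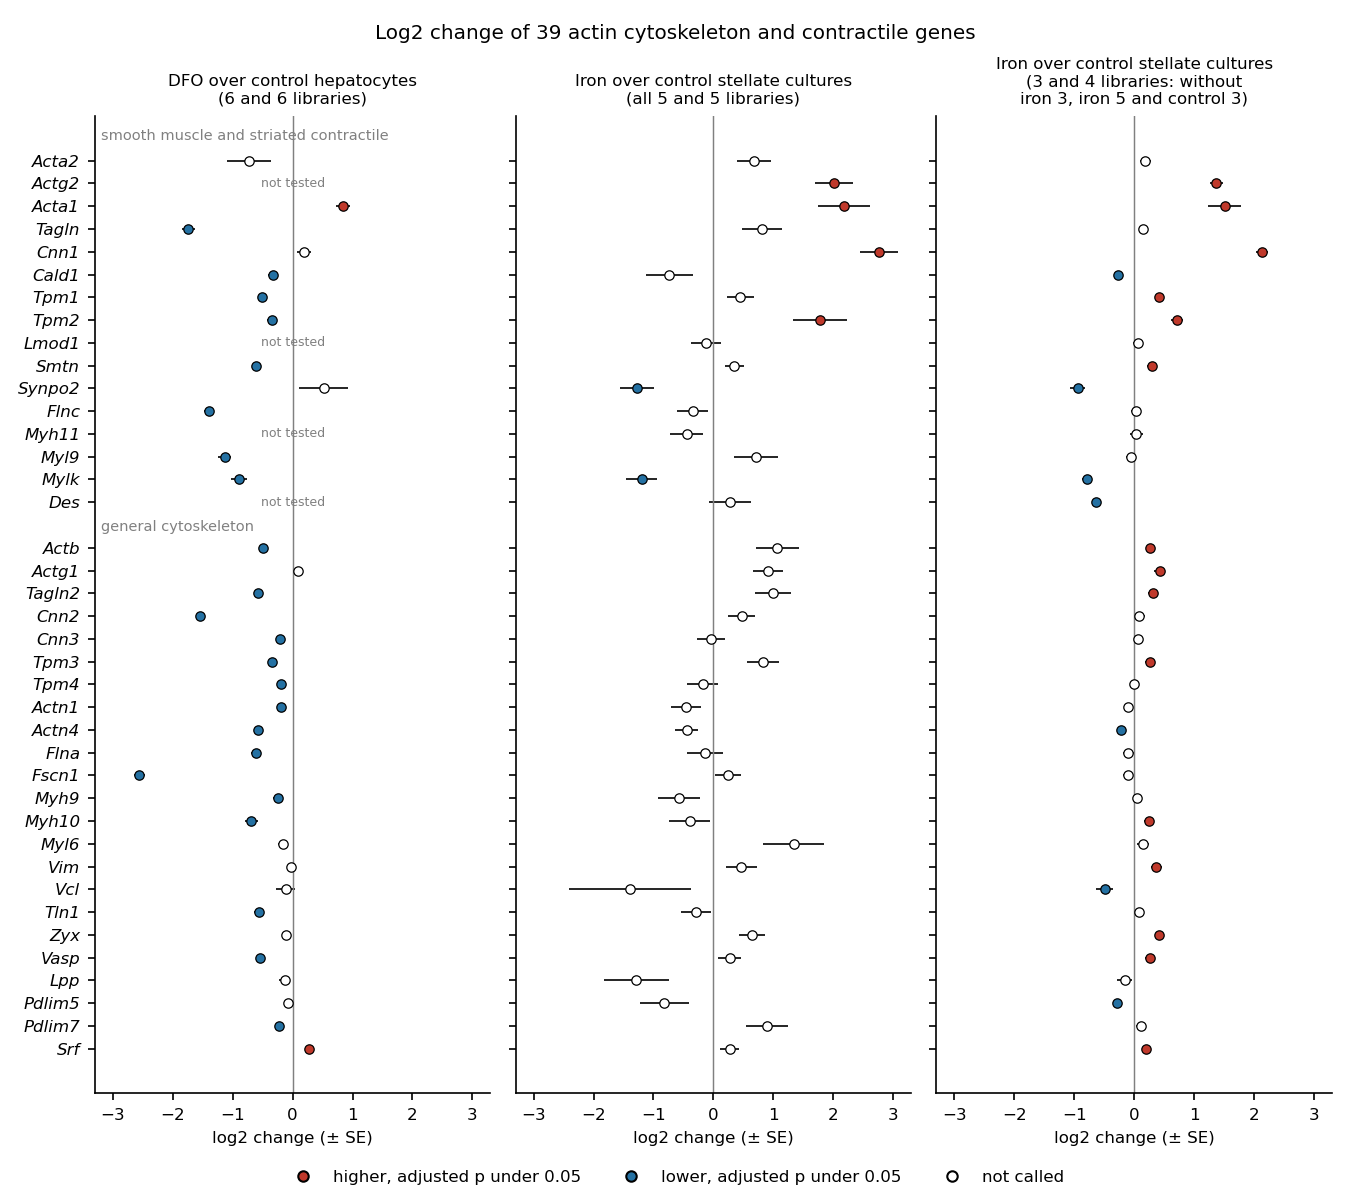
Log2 change (horizontal axis, ± SE) of each member gene in DFO over control hepatocytes, in iron over control stellate cultures with all 10 libraries, and in the same with 7 libraries; filled red points are called higher, filled blue points called lower, open points not called. In hepatocytes 23 members lie left of 0 as called and 2 right of it; in stellate cultures the called members are 4 right and 2 left with all libraries and 15 right and 7 left with 7.

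In hepatocytes, transcripts of much of the actin cytoskeleton were lower with DFO. Of the 35 members that passed the filter on low counts, 23 fell, 2 rose (Acta1 and Srf) and 10 were not called; over all 15660 genes tested, 58% were called, 27.9% higher and 30.1% lower. The groups did not overlap for 18 members that were lower and 2 that were higher, where 19.4% and 16.6% of all genes tested did so (35.9% in either direction). The median log2 change was -0.34 over the 35 members and -0.0012 over all genes tested. Among the 12 contractile genes tested 8 fell and 1 rose (median -0.56), and among the 23 general cytoskeleton genes 15 fell and 1 rose (median -0.22). Among the members, the largest falls were in Fscn1, Tagln, Cnn2, Flnc, Myl9 and Mylk, and Acta1 had the larger of the 2 rises. Actg2, Lmod1, Myh11 and Des did not pass the filter. In bulk RNA, fewer cells of a type and less RNA per cell cannot be told apart.

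Some markers of other liver cells moved with the groups in hepatocyte libraries. Vascular smooth muscle markers summed to 1.00 to 6.55 FPKM with DFO and 0.910 to 1.49 FPKM in controls over 8 genes, the highest in DFO library 1. In that library Pln held 264 counts and Casq2, calsequestrin of heart muscle, 125, against at most 9 and 5 in any other. Actc1, cardiac actin, which is not among the 8, held 1260 counts there, so the peak is not specific to vascular smooth muscle. Of the 8 genes 3 were tested, of which 1 rose and 1 fell. Stellate cell markers summed to 1.61 to 4.09 FPKM with DFO and 2.88 to 4.15 FPKM in controls over 13 genes; of 7 tested, 2 rose and 1 fell. That 1 was Col1a1, a collagen chain (-1.33 ± 0.10), while Reln and Dcn rose. Mesothelial and portal fibroblast markers summed to 82.2 to 104 FPKM with DFO and 129.7 to 170.2 FPKM in controls, groups that do not overlap, and had 3 lower and 1 higher of 4 tested, with Fbln2, fibulin 2, at -0.70 ± 0.079 and Msln, mesothelin, at -1.01 ± 0.15. These sums are mostly Fbln2, which held 16675 to 24752 raw counts with DFO and 18639 to 43847 in controls. The 1 that rose was Entpd2, with 431 to 696 raw counts with DFO and 188 to 353 in controls. Macrophage markers had 10 higher and 0 lower of 13 tested (also 0 lower at an unadjusted p under 0.05 and by DESeq2), and their sum was 196 to 273 FPKM with DFO, against 128 to 155 FPKM in controls. Endothelial markers summed to 8.05 to 11.6 FPKM with DFO and 7.14 to 8.66 FPKM in controls, with 3 higher and 1 lower of 14. Cholangiocyte markers summed to 116 to 175 FPKM with DFO and 117 to 151 FPKM in controls, with 1 higher and 1 lower of 3 tested. The part of these cells in the member results was not tested.

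Actins moved unequally. Actb, the main cytoplasmic actin, had 1854 to 2409.9 CPM (median 2089) with DFO, against 2768 to 3197 CPM (median 3003) in controls. The groups did not overlap, and the log2 change was -0.50 ± 0.064 (SE; edgeR adjusted p = 3.65e-06). Actg1, the other cytoplasmic actin, had 329.6 to 463 CPM (median 365) with DFO, against 338 to 389 CPM (median 347) in controls, groups that overlap, and was not called (log2 change 0.094 ± 0.072, adjusted p = 0.278). Acta1, skeletal muscle alpha-actin (ENSMUSG00000031972, chromosome 8, 123891769 to 123894751, mm10), had 22.0 to 36.5 CPM (median 24.9) with DFO, against 12.7 to 17.2 CPM (median 15) in controls. All 6 DFO libraries were above all 6 controls, with a log2 change of 0.84 ± 0.11 (edgeR adjusted p = 6.5e-06); its highest value was in DFO library 6. Acta2, alpha smooth muscle actin and the usual marker of activated stellate cells, had 0.615 to 3.25 CPM (median 1.48) with DFO, against 1.30 to 4.76 CPM (median 2.53) in controls. The groups overlap, and it was not called (log2 change -0.73 ± 0.37, edgeR adjusted p = 0.103; without DFO library 1, -1.005 and adjusted p = 0.0228). Actg2, enteric smooth muscle actin, reached at most 0.265 CPM with DFO and 0.0511 CPM in controls and was not tested. Near-identical copies and pseudogenes of the actins make the split of reads between them uncertain.

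Per length, Actb held a smaller share of the actin transcripts with DFO, and Actg1 and Acta1 larger ones. Of the summed FPKM of the 5 actin genes, Actb made up 83.1 ± 0.711% with DFO and 88.5 ± 0.326% in controls (mean ± SD, n = 6 each). Actg1 made up 15 ± 0.468% with DFO and 10.6 ± 0.293% in controls, and Acta1 1.84 ± 0.256% with DFO and 0.779 ± 0.0887% in controls. For each of the 3 genes the DFO and control libraries did not overlap. Acta2 was 0.0820 ± 0.0537% with DFO and 0.101 ± 0.0497% in controls, with overlapping libraries. A share within a library shows unequal change and does not say which gene moved.

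**Figure D3:**
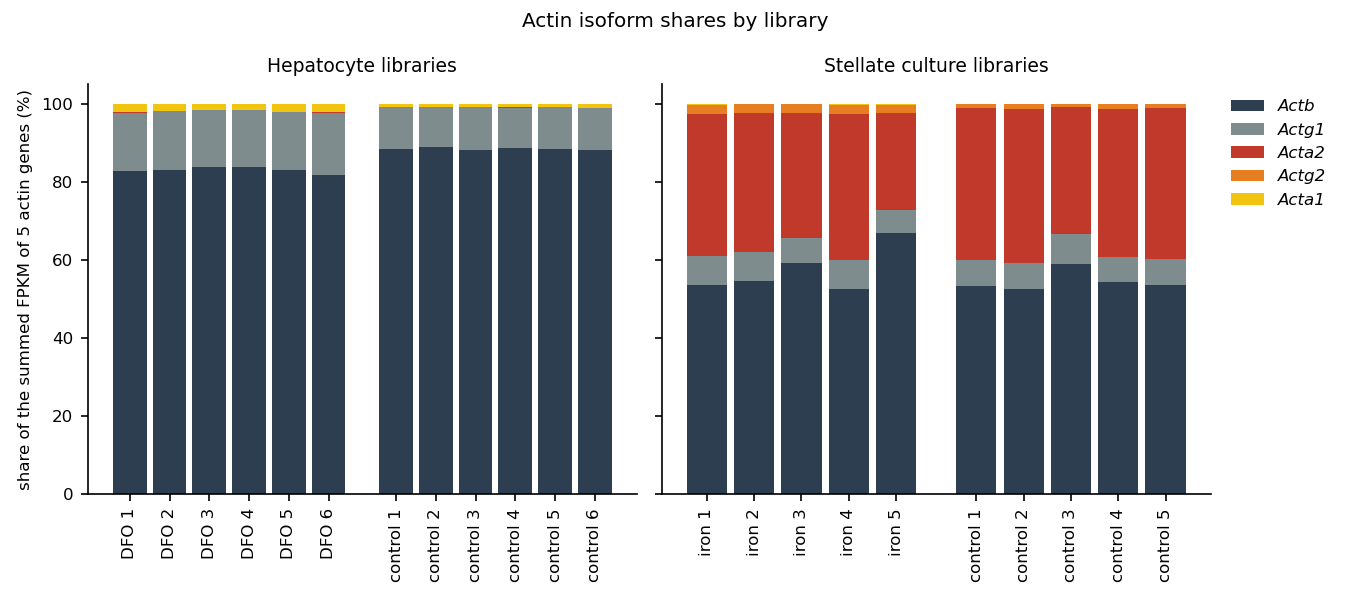
Share of each of 5 actin genes in their summed FPKM (vertical axis, %), 1 bar per library, treated libraries left of controls. Actb fills 81.9 to 83.8% of the bar in DFO hepatocytes and 88.1 to 89.0% in control hepatocytes; in stellate libraries Acta2 fills 25.1 to 37.3% with iron and 32.4 to 39.6% in controls, with the lowest values in iron 5 and control 3.

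Transcripts of the proteins that lie along contractile filaments mostly fell. Tagln, transgelin or SM22-alpha, a cross-linker of smooth muscle actin (ENSMUSG00000032085, chromosome 9, 45929619 to 45936058, mm10), had 1.51 to 2.48 CPM (median 2.01) with DFO, against 5.80 to 7.01 CPM (median 6.64) in controls. The groups were far apart, with a log2 change of -1.74 ± 0.11 (edgeR adjusted p = 6.43e-10). Tagln overlaps Pcsk7 and Gm48529 on the opposite strand, which held 22440 and 584 counts over the hepatocyte libraries, where Tagln held 1743; no source used here gives the strand setting, so their reads cannot be told apart, and Pcsk7 itself changed by -0.21 ± 0.057. Flnc, the muscle filamin, had 64.3 to 85.6 CPM (median 80.7) with DFO, against 183 to 244 CPM (median 194) in controls, without overlap and with the lowest value in DFO library 6 (log2 change -1.39 ± 0.083, adjusted p = 2.55e-10). Smtn, smoothelin, fell by 0.61 ± 0.066 on the log2 scale. The tropomyosin genes Tpm1 and Tpm2 fell by 0.51 and 0.34, and Cald1, caldesmon, by 0.33. Tpm1 and Smtn did not overlap between the groups, whereas Tpm2 and Cald1 did. Per length, Cald1 was the most abundant of the contractile regulators, at 125 ± 19.6 FPKM with DFO and 161 ± 12.9 FPKM in controls (mean ± SD, n = 6 each). Counts per gene do not separate splice forms, so they do not show whether smooth muscle forms of Cald1 or the tropomyosins were read. Cnn1, smooth muscle calponin, had 5.97 to 10.1 CPM (median 7.12) with DFO, against 5.98 to 7.55 CPM (median 6.47) in controls, and Synpo2, an actin-bundling protein of muscle Z-discs, had 0.225 to 1.26 CPM (median 0.364) with DFO, against 0.193 to 0.556 CPM (median 0.264) in controls. Neither was called (log2 changes 0.19 ± 0.12 and 0.52 ± 0.41, adjusted p = 0.178 and 0.287). Lmod1, leiomodin, a nucleator of smooth muscle actin filaments, reached at most 0.145 CPM with DFO and 0.291 CPM in controls and was not tested.

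All 5 transcripts of general actin-binding regulators fell without overlap between the groups. Cnn2, a calponin of non-muscle cells, had 56.6 to 69.1 CPM (median 60.5) with DFO, against 167 to 189 CPM (median 179) in controls. That was 2.91-fold lower (log2 change -1.54 ± 0.058, edgeR adjusted p = 8.99e-13). Tagln2, the widely expressed transgelin, fell by 0.58 on the log2 scale, Tpm3 by 0.34, and Cnn3 and Tpm4 by 0.21 and 0.20. Within the calponins the unequal change showed as composition: Cnn2 made up 19.7 ± 0.855% of the summed calponin FPKM with DFO and 38.3 ± 1.13% in controls, and Cnn3 78.1 ± 1.04% with DFO and 60.4 ± 1.09% in controls.

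The 4 transcripts of crosslinkers and bundlers fell too. Fscn1, fascin, which packs filaments into the tight bundles of filopodia (ENSMUSG00000029581, chromosome 5, 142960343 to 142973185, mm10), showed the largest change of all members. It had 3.07 to 4.55 CPM (median 3.81) with DFO, against 19.4 to 24.1 CPM (median 22.6) in controls. The DFO libraries lay 5.88-fold lower, a log2 change of -2.56 ± 0.084 (edgeR adjusted p = 1.69e-13). Flna, the filamin of most cells, and the alpha-actinin gene Actn4 fell by 0.61 and 0.57 on the log2 scale without overlap. Actn1, the other alpha-actinin, had 612 to 803 CPM (median 752) with DFO, against 794 to 918 CPM (median 826) in controls, with DFO library 6 lowest and overlapping groups (log2 change -0.20 ± 0.061, adjusted p = 0.0105).

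Among myosins, Myl9, the regulatory light chain of smooth muscle and non-muscle myosin II, had 2.67 to 3.97 CPM (median 3.22) with DFO, against 5.99 to 9.19 CPM (median 7.19) in controls, without overlap (log2 change -1.13 ± 0.11, edgeR adjusted p = 1.78e-07). Mylk, the kinase that phosphorylates this light chain, had 8.29 to 14.9 CPM (median 11.2) with DFO, against 19.1 to 25.4 CPM (median 21.0) in controls. Its groups did not overlap either, and the log2 change was -0.90 ± 0.13 (adjusted p = 1.85e-05). Myh10, the heavy chain of non-muscle myosin IIB, had 28.1 to 49.6 CPM (median 44.6) with DFO, against 61.5 to 71.6 CPM (median 68.1) in controls, again without overlap, with the lowest value in DFO library 6 (log2 change -0.69 ± 0.10, adjusted p = 1.97e-05). Myh9, the heavy chain of non-muscle myosin IIA and 97.5 ± 0.196% of the summed heavy chain FPKM with DFO and 96.7 ± 0.213% in controls, fell by 0.24 ± 0.084 on the log2 scale with overlapping groups. The essential light chain gene Myl6 was not called (log2 change -0.16 ± 0.074, adjusted p = 0.0703). Myh11, smooth muscle myosin heavy chain, was at 0 to 0.861 CPM with DFO and 0.0724 to 0.614 CPM in controls and was not tested. Vim, vimentin, an intermediate filament protein of mesenchymal cells, had 2463 to 3048 CPM (median 2812) with DFO, against 2610.2 to 3134 CPM (median 2836) in controls. The groups overlap, and the log2 change was -0.030 ± 0.065 (adjusted p = 0.715). Per length, Vim was the second most abundant member after Actb in these libraries, at 519 to 631 FPKM with DFO and 570.4 to 655 FPKM in controls. Des, desmin, the intermediate filament of muscle and of rodent stellate cells, reached 6.59 CPM in DFO library 1 and at most 0.290 CPM in the other 5 DFO libraries, against 0 to 1.99 CPM in controls. DFO library 1 was also highest in Actc1, cardiac actin (41.7 CPM), Pln, phospholamban (8.75 CPM), and Casq2, calsequestrin of heart muscle (4.14 CPM), which the other hepatocyte libraries held at no more than 1.21 CPM. The part of this library in the values of Des, Actg2, Myh11 and Synpo2 was not tested further; those 4 genes carry no call.

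Of the 7 focal adhesion and stress fibre genes, 3 fell and 4 were not called (median log2 change -0.13). Tln1, talin, which links integrins to actin, and Vasp, which speeds filament growth, fell by 0.57 and 0.54 on the log2 scale without overlap (edgeR adjusted p = 6.2e-06 and 7.23e-09). Tln1 overlaps Creb3 on the opposite strand, which held 32.2% as many counts. Pdlim7, a PDZ-LIM protein of stress fibres, fell by 0.22 with overlapping groups. Vcl, Zyx, Lpp and Pdlim5 were not called, with log2 changes of -0.12 ± 0.15, -0.11 ± 0.053, -0.13 ± 0.093 and -0.083 ± 0.047. Vcl, vinculin, had 75.7 to 195 CPM (median 162) with DFO, against 153 to 183 CPM (median 172) in controls, with DFO library 6 below every other library; it overlaps Ap3m1 on the opposite strand, which held 71.8% as many counts. Srf itself rose. It had 58.0 to 73.7 CPM (median 67.1) with DFO, against 52.5 to 57.4 CPM (median 54.5) in controls, so that the groups did not overlap, with a log2 change of 0.27 ± 0.055 (adjusted p = 0.000408).

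**Figure D4:**
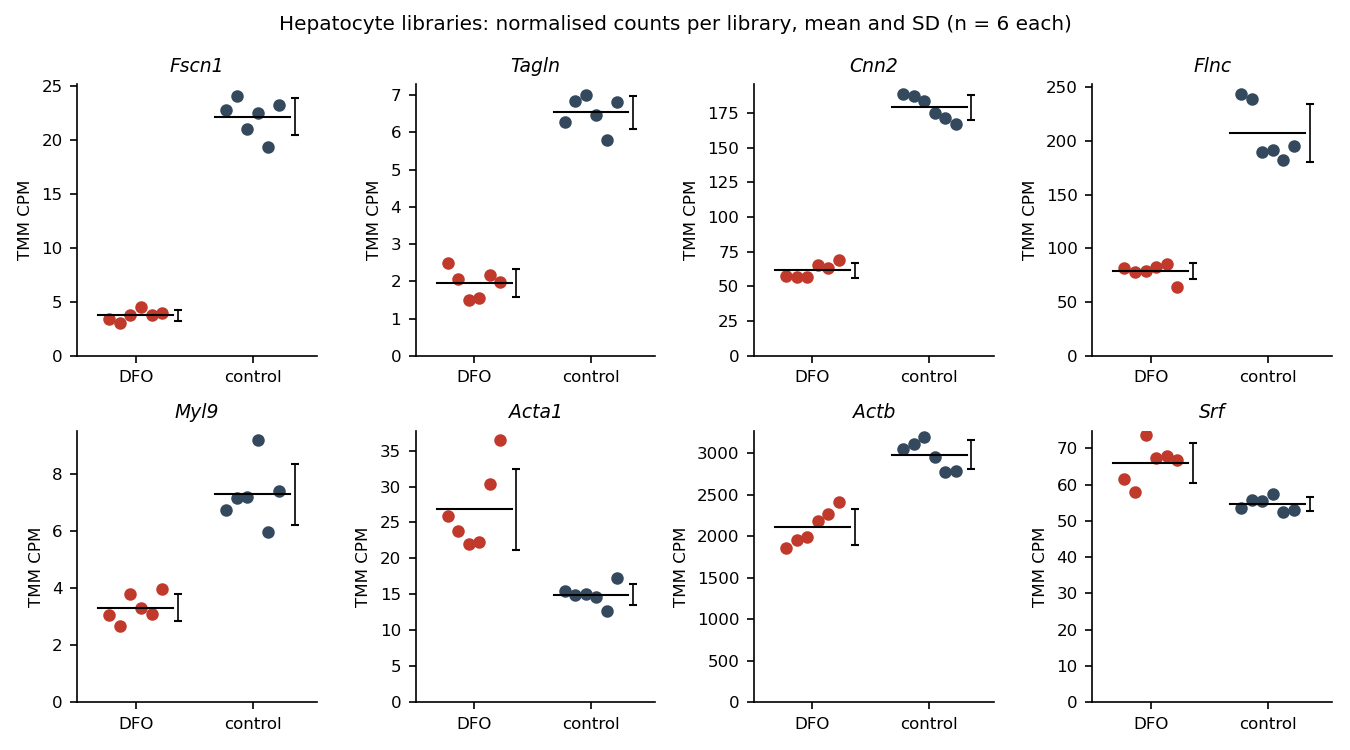
TMM-normalised CPM (vertical axes, from 0) of 8 member genes in each DFO hepatocyte library (left) and control library (right), with the mean and SD (n = 6 each). Fscn1, Tagln, Cnn2, Flnc, Myl9 and Actb lie lower in all 6 DFO libraries than in any control, and Acta1 and Srf lie higher.

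Genes around the same machinery moved both ways in hepatocytes, where 58% of all genes were called. Of 6 SRF cofactors tested, 3 rose and 1 fell (median log2 change 0.16): Mrtfb, a myocardin-related factor, was at 111 ± 16.1 CPM with DFO and 65.8 ± 6.43 CPM in controls (log2 change 0.75 ± 0.090), Elk4 changed by 0.31 ± 0.057, and Elk3, a factor that competes for SRF, was at 22.5 ± 1.48 CPM with DFO and 33.3 ± 1.52 CPM in controls (-0.56 ± 0.053). Of 14 other SRF targets and muscle isoforms, 5 rose and 6 fell (median -0.14). Fos, an immediate early gene, changed by 0.97 ± 0.076 on the log2 scale, whereas Ccn1, a secreted matrix protein, changed by -0.64 ± 0.045 and Nexn, an F-actin binder, by -1.23 ± 0.089. Of 22 genes of filament assembly and turnover, 6 rose and 4 fell (median 0.054). The 3 of smallest p were Pfn2, a profilin, at -0.50 ± 0.067, and the Arp2/3 subunit genes Arpc1b at -0.31 ± 0.061 and Arpc1a at 0.27 ± 0.061. Of 19 integrin and focal adhesion genes tested, 6 rose and 10 fell (median -0.12). Tes, testin, was at 430.3 ± 22.8 CPM with DFO and 265 ± 9.48 CPM in controls, and Parva, alpha-parvin, and Itga3, an integrin subunit, changed by -0.44 ± 0.042 and -0.56 ± 0.054. Of 8 other intermediate filament genes tested, 1 rose and 6 fell (median -0.47). Nes, nestin, was at 19.6 ± 1.60 CPM with DFO and 69.9 ± 3.18 CPM in controls (-1.83 ± 0.058), and the lamin genes Lmnb1 and Lmnb2 changed by -1.27 ± 0.055 and -0.66 ± 0.059.

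In stellate cultures, added iron went with more of some contractile transcripts and less of others. With all 10 libraries, 4 of the 39 members rose, all of them contractile (Cnn1, Acta1, Actg2 and Tpm2), and 2 fell, also contractile (Synpo2 and Mylk); of all 15502 genes tested, 7.42% were called, 4.05% higher and 3.37% lower. The groups did not overlap for 9 members that were higher and 6 that were lower, against 8.42% and 13.4% of all genes (21.9% in either direction). None of the 23 general cytoskeleton genes was called by edgeR; at an unadjusted p under 0.05, 7 were higher and 2 lower, and DESeq2 called 5 higher and 0 lower. Without iron 3, iron 5 and control 3, 15 members rose and 7 fell, where 38.1% of 16287 genes were called, 18.3% higher and 19.8% lower. Of these, 6 higher and 4 lower were contractile and 9 higher and 3 lower general. All 6 genes called with 10 libraries were called in the same direction with 7. Exonic length was 1536 to 2909 bases in the 4 that rose with 10 libraries, and 11263 and 13089 bases in the 2 that fell. Myl9, Tagln and Lpp, of 1162, 1988 and 22046 bases, were not called with 10 or with 7. The part of length in these calls was not tested. The median log2 change over the 39 members was 0.27 with 10 libraries and 0.085 with 7. Leaving out 1 library at a time, 3 to 5 members were called higher and 0 to 2 lower: Cnn1, Acta1 and Actg2 were called each time, whereas Tpm2 lost its call without iron 3, iron 4 or any 1 control, Synpo2 without iron 3, control 1 or control 2, and Mylk without iron 3 or control 2.

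Markers of other cells moved with the groups in stellate cultures. All 13 macrophage markers tested were higher with iron in 10 and in 7 libraries, and their sum over 14 genes was 1601 to 2271 FPKM in iron libraries, against 129.8 to 220.1 FPKM in controls. Clec4f, the Kupffer cell lectin, was at 88.9 ± 26.8 CPM with iron and 0.328 ± 0.187 CPM in controls (n = 5 each). Endothelial markers had 8 higher and 0 lower of 14 with 10 libraries, and 13 higher and 1 lower with 7. With 10, an unadjusted p under 0.05 gave 10 and 0, and DESeq2 9 and 0. Their sum over all 10 libraries was 180.4 to 243 FPKM with iron and 177 to 199.6 FPKM in controls. With 7 it was 227 to 243 FPKM with iron and 177 to 191 FPKM in controls. The largest part of these sums was Eng, endoglin. Over all 10 libraries Eng was at 99.6 to 157 FPKM with iron and 145 to 172 FPKM in controls. The sums over all 10 libraries therefore hide the rise of the other markers. In the 7 libraries Cdh5 was at 37.9 to 41.6 FPKM with iron and 6.97 to 10.0 FPKM in controls. Stellate cell markers had 4 lower and 0 higher of 13 with 10 libraries and 10 lower with 7. At an unadjusted p under 0.05 with 10 libraries 8 were lower and 0 higher, and by DESeq2 6 and 0. Their sum over all 10 libraries was 257 to 919 FPKM with iron and 1271 to 1664 FPKM in controls. With 7 it was 850 to 919 FPKM with iron and 1271 to 1347 FPKM in controls. Vascular smooth muscle markers, which contain no member gene, had 0 called of 5 tested with 10 libraries (2 lower at an unadjusted p under 0.05 and 2 lower by DESeq2) and 2 lower with 7, Ppp1r14a (-0.83 ± 0.11) and Kcnmb1 (-0.91 ± 0.16). Pln was listed at 0 in all 7 of those libraries. All 10 hepatocyte markers were lower with iron in the 7 libraries (median log2 change -1.60), at 26.2 to 53.3 FPKM with iron and 67.1 to 101.8 FPKM in controls. With 10 libraries 2 of them were lower and 0 higher (4 and 0 at an unadjusted p under 0.05, 4 and 0 by DESeq2). Mesothelial and portal fibroblast markers had 1 higher and 1 lower of 9 with 10 libraries and 3 higher and 3 lower with 7. Over all 10 libraries they summed to 226 to 335 FPKM with iron and 349 to 432 FPKM in controls. Of these sums Fbln2 alone held 94.2 to 256 FPKM with iron and 310 to 399 FPKM in controls. Cholangiocyte markers had 1 higher of 3 tested with 10 libraries, and 1 higher and 1 lower of 4 with 7. Over all 10 libraries they summed to 7.03 to 27.7 FPKM with iron and 4.26 to 5.24 FPKM in controls. With 7 the sum with iron was 7.03 to 12.6 FPKM. The part of these cells in the member results was not tested.

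Of the actin transcripts, those of the 2 rarer muscle isoforms rose. Actg2, enteric smooth muscle actin, had 166, 142, 323, 213 and 365 CPM in iron libraries 1 to 5, against 60.9, 69.1, 32, 72.9 and 64.7 CPM in control libraries 1 to 5. Every iron library exceeded every control, with iron 3 and iron 5 highest and control 3 lowest. The log2 change was 2.01 ± 0.32 (edgeR adjusted p = 0.00352) and 1.37 ± 0.12 with 7 libraries (adjusted p = 1.13e-06). Acta1, skeletal muscle alpha-actin, had 10.2, 5.29, 13.6, 12.3 and 24.6 CPM in iron libraries 1 to 5, against 3.37, 3.57, 1.63, 1.98 and 3.92 CPM in control libraries 1 to 5. The groups did not overlap, and the log2 change was 2.18 ± 0.43 (adjusted p = 0.0118), or 1.51 ± 0.28 with 7 libraries (adjusted p = 0.000788). Acta2, alpha smooth muscle actin, had 3518, 3356, 6553, 4522 and 6165 CPM in iron libraries 1 to 5, against 3489, 3374, 1717, 3233 and 3272 CPM in control libraries 1 to 5. Its groups overlap because iron 2 lay below control 1 and control 2, and it was not called with 10 libraries (log2 change 0.68 ± 0.28, adjusted p = 0.149) or with 7 (0.18 ± 0.092, adjusted p = 0.143). Actb had 6317, 6234, 14729.6, 7754 and 20059.9 CPM in iron libraries 1 to 5, against 5803, 5458, 3811, 5646 and 5546 CPM in control libraries 1 to 5. All iron libraries were above all controls, but the call depended on the libraries: log2 change 1.07 ± 0.36 with 10 (adjusted p = 0.0977) and 0.27 ± 0.078 with 7 (adjusted p = 0.0167). Actg1 also had groups that did not overlap, with log2 changes of 0.92 ± 0.25 with 10 libraries (adjusted p = 0.0511) and 0.42 ± 0.093 with 7 (adjusted p = 0.00288).

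Per length, Acta2 was at 1841 ± 282 FPKM in the 3 iron libraries kept and 1547 ± 46.1 FPKM in the 4 controls kept (mean ± SD), and Actb at 2690.1 ± 304 FPKM with iron and 2129.8 ± 49.7 FPKM in controls. Actg2 was at 119 ± 23.4 FPKM with iron and 43.7 ± 3.44 FPKM in controls, and Acta1 at 6.40 ± 2.44 FPKM with iron and 2.12 ± 0.566 FPKM in controls. In the same 7 libraries Actg2 made up 2.35 ± 0.182% of the actin FPKM with iron and 1.10 ± 0.105% in controls. Acta2 made up 36.5 ± 0.743% with iron and 38.8 ± 0.709% in controls, and Actb 53.6 ± 1.06% with iron and 53.4 ± 0.742% in controls. The share of Actg2 did not overlap between the groups in all 10 libraries either (2.09 to 2.49% with iron, 0.854 to 1.21% in controls).

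Cnn1, smooth muscle calponin, which binds actin and slows its cycle with myosin (ENSMUSG00000001349, chromosome 9, 22099216 to 22109630, mm10), had the largest change of all members in stellate cultures. It had 139, 132, 249, 168 and 336 CPM in iron libraries 1 to 5, against 31.9, 38.7, 18.1, 30.9 and 31.6 CPM in control libraries 1 to 5. The lowest iron library was above the highest control, and the difference was 6.77-fold with 10 libraries (log2 change 2.76 ± 0.31, edgeR adjusted p = 0.000514) and 4.39-fold with 7 (2.13 ± 0.10, adjusted p = 8.26e-09). Within the calponins Cnn1 made up 9.60 ± 0.0814% of the FPKM with iron and 2.48 ± 0.253% in controls in the 7 libraries. Tpm2, beta-tropomyosin, had 788, 748, 2406, 1062 and 2918 CPM in iron libraries 1 to 5, against 512, 507, 205, 521 and 568 CPM in control libraries 1 to 5. Iron 3 and iron 5 were far above the other iron libraries, which were above all controls. The log2 change was 1.78 ± 0.45 with 10 libraries (adjusted p = 0.0357) and 0.71 ± 0.10 with 7 (adjusted p = 0.000128), so that the value with 10 rests in part on the 3 libraries that stand apart. Tpm1 and Smtn rose with 7 libraries and were not called with 10, with log2 changes of 0.41 ± 0.070 and 0.30 ± 0.075, against 0.45 ± 0.23 and 0.35 ± 0.16 with 10.

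Other contractile regulator transcripts fell or were not called. Synpo2 had 8.92, 8.91, 6.62, 11.2 and 3.79 CPM in iron libraries 1 to 5, against 18.7, 21.4, 22.4, 16.6 and 16.9 CPM in control libraries 1 to 5. All iron libraries lay below all controls, with a log2 change of -1.28 ± 0.29 (edgeR adjusted p = 0.0212) and -0.94 ± 0.13 with 7 libraries (adjusted p = 7.29e-05). Cald1 had 1790.0, 1907, 1042, 1592 and 303 CPM in iron libraries 1 to 5, against 2157, 2176, 2565, 2092 and 2053 CPM in control libraries 1 to 5; the groups did not overlap, the log2 change was -0.74 ± 0.40 and not called with 10 libraries (adjusted p = 0.247), and -0.27 ± 0.071 and called with 7 (adjusted p = 0.00929). Tagln had 632, 634, 1356, 764 and 1289 CPM in iron libraries 1 to 5, against 618, 626, 222, 588 and 604 CPM in control libraries 1 to 5. The groups did not overlap, but the 4 controls other than control 3 lay just under iron 1 and iron 2, and Tagln was not called with 10 libraries (0.81 ± 0.34, adjusted p = 0.146) or with 7 (0.15 ± 0.076, adjusted p = 0.146). Flnc and Lmod1 were not called either, at -0.35 ± 0.26 and -0.12 ± 0.26 with 10 libraries and 0.028 ± 0.089 and 0.056 ± 0.080 with 7.

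Of the contractile myosin genes, the kinase fell. Mylk had 199.8, 184, 134, 181 and 73.9 CPM in iron libraries 1 to 5, against 328, 345, 469.6, 328 and 302 CPM in control libraries 1 to 5. The groups did not overlap; the lowest value was in iron 5 and the highest in control 3. The log2 change was -1.20 ± 0.26 (edgeR adjusted p = 0.0198) and -0.80 ± 0.070 with 7 libraries (adjusted p = 1.69e-06). Its substrate Myl9 was not called, at 0.71 ± 0.36 with 10 libraries and -0.054 ± 0.087 with 7. Myh11, the smooth muscle heavy chain, was not called at -0.44 ± 0.28 and 0.037 ± 0.11. Des had 109, 107, 328, 119.7 and 314 CPM in iron libraries 1 to 5, against 179.9, 172, 115, 178 and 163 CPM in control libraries 1 to 5. Iron 3 and iron 5 were above every control, while iron 1, 2 and 4 were below the 4 controls other than control 3, so that the log2 change was 0.28 ± 0.36 with 10 libraries (adjusted p = 0.637) and -0.63 ± 0.071 with 7 (adjusted p = 1.35e-05).

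**Figure D5:**
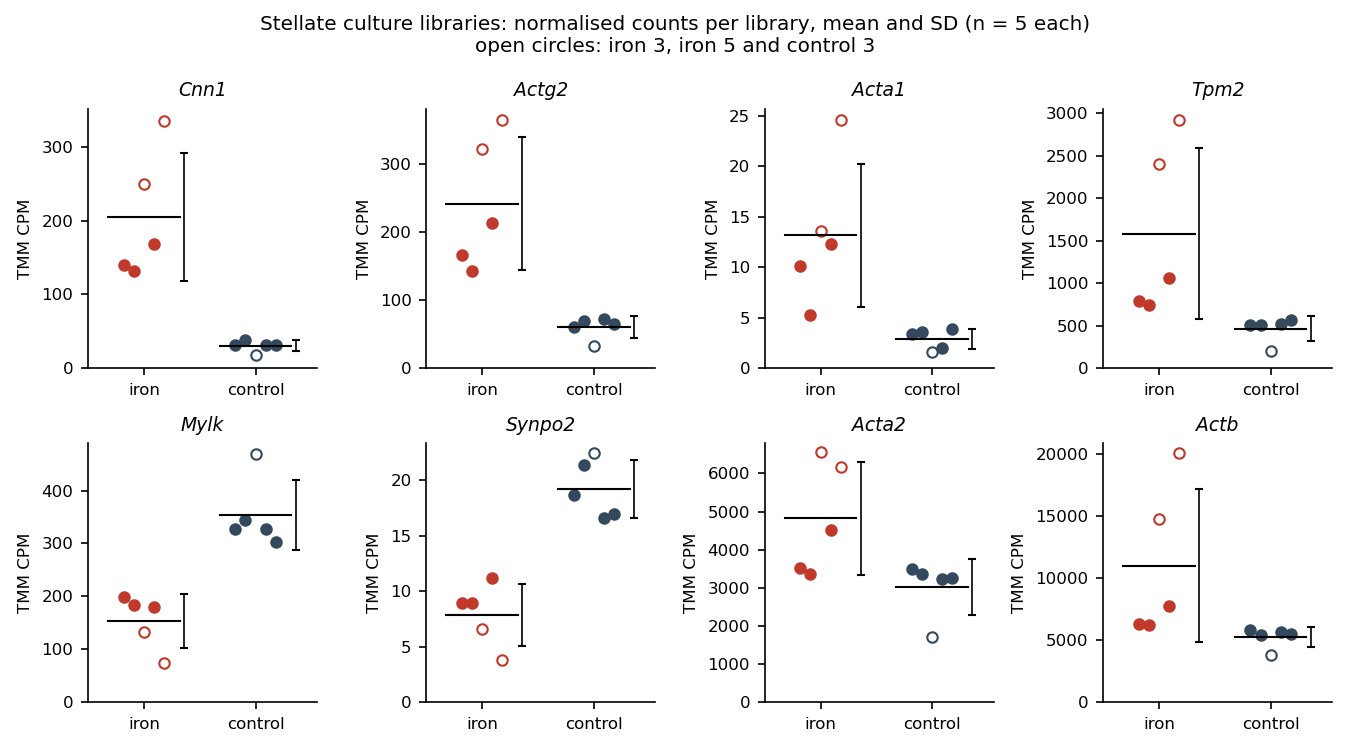
TMM-normalised CPM (vertical axes, from 0) of 8 member genes in each iron stellate library (left) and control library (right), with the mean and SD (n = 5 each); open circles are iron 3, iron 5 and control 3. Cnn1, Actg2, Acta1, Tpm2 and Actb lie higher in every iron library than in any control, Mylk and Synpo2 lie lower, and Acta2 overlaps.

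Among the general cytoskeleton genes, the 7 libraries gave small changes. Tagln2, Tpm3 and Vim rose by 0.31 ± 0.081, 0.26 ± 0.068 and 0.37 ± 0.093 on the log2 scale, Zyx, zyxin, a LIM protein of focal adhesions, by 0.42 ± 0.075, Vasp by 0.26 ± 0.076 and Myh10 by 0.24 ± 0.085. Vim reached 1.29-fold, and its values were 2705, 2653, 4159, 3559 and 1684 CPM in iron libraries 1 to 5, against 2265, 2215, 1546, 2332 and 2359 CPM in control libraries 1 to 5. Iron 5 was below the 4 controls other than control 3 and the other iron libraries were above them. Vcl, Pdlim5 and Actn4 fell with 7 libraries, with log2 changes of -0.50 ± 0.14, -0.29 ± 0.071 and -0.22 ± 0.061. Vcl had 444, 417, 3.95, 257 and 4.79 CPM in iron libraries 1 to 5, against 534, 533, 867, 537 and 494 CPM in control libraries 1 to 5; iron 3 and iron 5 held almost none, Ap3m1 on the opposite strand held 17.3% as many counts, and the log2 change with 10 libraries was -1.40 ± 1.02 (edgeR adjusted p = 0.39). Fscn1, the member that moved most in hepatocytes, was at 342 ± 35.3 FPKM with iron and 351 ± 20.6 FPKM in controls in the 7 libraries and was not called (-0.11 ± 0.080, or 0.25 ± 0.21 with 10). Cnn2, Cnn3, Tpm4, Actn1, Flna, Myh9, Myl6, Tln1, Lpp and Pdlim7 were not called with 10 or with 7 libraries; their 7-library log2 changes ran from -0.16 to 0.15. Srf had 135, 114, 109.7, 129.7 and 178 CPM in iron libraries 1 to 5, against 113, 106, 112, 114 and 108 CPM in control libraries 1 to 5. The groups overlap, and it was called with 7 libraries (0.20 ± 0.072, adjusted p = 0.0481) and not with 10 (0.27 ± 0.16, adjusted p = 0.295).

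Genes around the same machinery moved both ways with 7 libraries, where 38.1% of all genes were called, and had few calls with 10, where 7.42% were. Of 5 SRF cofactors tested, 2 rose with 7 libraries, Mrtfa (0.32 ± 0.090) and Elk3 (0.24 ± 0.084); none was called with 10 by edgeR or DESeq2 (0 higher and 1 lower at an unadjusted p under 0.05). Of 13 other SRF targets and muscle isoforms, 1 rose and 7 fell with 7 libraries (median -0.21), among them Fhl1, a LIM protein of muscle (-0.28 ± 0.062), Filip1l (-0.23 ± 0.066) and Egr1, an immediate early gene (-0.27 ± 0.079). With 10 libraries edgeR called 0 of the 13, with 2 higher and 0 lower at an unadjusted p under 0.05, and DESeq2 called 1 higher and 2 lower. Of 22 filament assembly genes, 8 rose and 1 fell with 7 libraries, and 1 rose with 10. Tmsb4x, which sequesters actin monomers, was at 1387 ± 174 CPM with iron and 869 ± 65.8 CPM in controls (0.67 ± 0.088), and Arpc5 and Actr3 of the Arp2/3 complex changed by 0.47 ± 0.073 and 0.34 ± 0.061. Of 20 integrin and adhesion genes, 5 rose and 10 fell with 7 libraries, and 2 rose and 3 fell with 10. Itga1, the collagen-binding integrin subunit, was at 56.0 ± 8.68 CPM with iron and 162 ± 11.2 CPM in controls (-1.53 ± 0.10), Parvb, beta-parvin, changed by 1.25 ± 0.080 and Tes by 0.88 ± 0.066. Of 9 other intermediate filament genes, 2 rose and 4 fell with 7 libraries and 1 rose and 1 fell with 10. Lmnb1, a lamin, changed by 1.20 ± 0.086, Synm, synemin, by -1.76 ± 0.15 and Krt18, a keratin, by -1.53 ± 0.16.

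Set side by side, the comparisons share no library. With DFO in hepatocytes and iron in the 7 stellate libraries, 2 members were higher in both (Acta1 and Srf), 3 lower in both (Cald1, Mylk and Actn4), and 8 lower with DFO and higher with iron (Tpm1, Tpm2, Smtn, Actb, Tagln2, Tpm3, Myh10 and Vasp). That is 5.71%, 8.57% and 22.9% of the 35 members tested in both, where over all 14313 genes tested in both the same shares were 4.8%, 6.23% and 7.65%. Higher with DFO and lower with iron were 0 members, against 7.17% of all genes. Of the members named here, only Acta1, Mylk and Tpm2 were also called with all 10 stellate libraries. With those 10, Myh10 had the opposite sign and was not called (log2 change -0.40). Because 23 of 35 members were lower with DFO and 15 of 39 higher with iron, a raised joint share needs no link between the 2 comparisons. For Actb the log2 changes were -0.50 ± 0.064 with DFO and 0.27 ± 0.078 with iron, for Tagln2 -0.58 ± 0.067 and 0.31 ± 0.081, and for Tpm2 -0.34 ± 0.083 and 0.71 ± 0.10. The cell types, the media and the treatments differ together, and whether a gene's change differed between them was not tested. Per length, Acta2 was at 1634 to 2729 FPKM in iron and 709.8 to 1604 FPKM in control stellate libraries, and at 0.280 to 1.48 FPKM in DFO and 0.600 to 2.19 FPKM in control hepatocyte libraries, values normalised separately by the authors. Actb ranged over 2488 to 6875 FPKM in iron and 1292 to 2188 FPKM in control stellate libraries, and over 691 to 883 FPKM in DFO and 1057 to 1206 FPKM in control hepatocyte libraries.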

How the data were processed

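Gene-level counts and FPKM of 22 libraries were read from 2 deposited tables, 1 per cell type. Per the submitters' processing notes, reads were trimmed with cutadapt 1.9.1 and aligned with HISAT2 2.0.1 to mm10; the sources used here give neither the counter, the annotation nor the strand. The counts are raw whole numbers per gene as deposited by the authors. The FPKM values were deposited by the authors and equal the count scaled by exonic size and library total to within 1%. The labels' library text names a small RNA kit and 4 biological replicates, whereas the labels list 6 and 5 libraries a group.

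From the counts, filterByExpr, TMM scaling and edgeR 4.0.16 (quasi-likelihood test, R 4.3.3) gave log2 changes per cell type, with Benjamini-Hochberg adjustment over all genes tested and SE from the F statistic; CPM are TMM-scaled. Alternatives used DESeq2 1.42.0, DESeq2 size factors, no filter, limma 3.58.1 (voom with quality weights, or log2(FPKM + 1) and log2(FPKM + 0.1)), a replicate block, each library left out, and stellate fits with 7 and 6 libraries. Every pair of libraries within a group differed beyond sampling noise. The fit was tested on simulated data. Figures used matplotlib 3.10.9. For lists around the members, the 3 genes of smallest p were named. Members, lists and the libraries left out were chosen with earlier results of these data known. Results of 1 further gene list are not reported here.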

Additional observations from a re-analysis of the deposited data

Results flagged for a closer look

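A library was marked where its gap to the nearest library of its group, over the range of the group, passed Dixon's 95% critical value, which chance passes in about 1 in 20 groups; here 41 of 156 groups of member values were marked (26.3%), 28 of them by 1 library.

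Stellate control 3 was marked for lying below the other 4 controls in 15 genes, in CPM Acta2 1717, Tagln 222, Tpm1 1212, Tpm2 205, Myl9 201, Des 115, Actb 3811 and Actg1 490.1, as well as Tagln2 334, Cnn2 494, Cnn3 296, Tpm3 279, Tpm4 1463, Myl6 265 and Vim 1546. It was marked for lying above them in 13 genes, in CPM Cald1 2565, Flnc 656, Myh11 146, Mylk 469.6, Actn1 1455, Flna 5388 and Myh9 3497, as well as Myh10 339, Vcl 867, Tln1 1503, Zyx 976, Lpp 2044 and Pdlim5 723. Averaged over counts, exonic length in the same library was 7.23 kb, against 5.62 to 5.69 kb in the other controls; the part of this difference in the marked values was not tested. DFO library 6 stood above the other DFO libraries in Tpm2 100.3 CPM and below them in Flnc 64.3, Actn1 612, Flna 729, Vcl 75.7 and Tln1 314 CPM, with a mean exonic length of 4.73 kb against 5.02 to 5.36 kb. DFO library 1 stood above the others in Actg2 0.265, Synpo2 1.26, Myh11 0.861 and Des 6.59 CPM. Hepatocyte control 3 stood above its group in Myh11 0.614 CPM, hepatocyte control 5 below in Pdlim7 241 CPM, and iron 5 below in Lmod1 31.9 CPM.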

How the results depend on the processing

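In hepatocytes the counts of called genes and members stayed within 1.5 times their value under every alternative run: 2 to 2 members higher and 23 to 25 lower on leaving out 1 library. In stellate cultures they did not. Genes called higher were 628 with all libraries, 1615 by DESeq2, 3055 by voom with quality weights, 2988 with 7 libraries, 3299 with 6 (also without iron 4, chosen after seeing the data) and 343 to 1186 on leaving out 1 library. Genes called lower were 523, with 1280 by DESeq2, 337 without the count filter, 3264 by voom, 3224 with 7, 3327 with 6 and 262 to 1276 on leaving out 1. Members higher were 4, with 9 by DESeq2, 15 by voom, 15 with 7, 16 with 6 and 3 to 5 on leaving out 1. Members lower were 2, with 1 by limma on log2(FPKM + 0.1), 6 by voom, 7 with 7, 9 with 6 and 0 to 2 on leaving out 1; the 0 came without iron 3 (2 lower at an unadjusted p under 0.05) and without control 2 (3 lower). The cause was not tested. All 22 members called with 7 libraries were called in the same direction with 6.

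With the replicate number as a block, stellate counts were 107 genes higher and 68 lower, and 1 member higher and 0 lower (2 lower at an unadjusted p under 0.05); Cnn1 was the member called. The block left hepatocyte members at 2 higher and 23 lower. No pairing by number was seen: same-numbered deviations correlated at -0.24 to -0.0027 in hepatocytes and -0.32 to 0.12 in stellate cultures, and no library correlated best with its own number. These correlations cannot exclude pairing, because other differences between libraries, such as those with gene length, enter them too. The labels do not say whether libraries were paired.

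Members that were not called with all stellate libraries changed sign in some fits. Under voom, with 7 and with 6 libraries, the log2 changes were Lmod1 0.0013, 0.056 and 0.0078; Flnc 0.063, 0.028 and 0.14; Myh11 0.064, 0.037 and 0.15. They were Myl9 -0.086, -0.054, -0.16, Des -0.64, -0.63, -0.66, Cnn3 0.028, 0.057, 0.0096 and Fscn1 -0.12, -0.11, -0.17 for the next 4, and Myh9 0.059, 0.054, 0.14, Myh10 0.28, 0.24, 0.36 and Tln1 0.12, 0.077, 0.20 for the last 3. With 6 libraries alone, Cnn2 was at -0.042, Flna was at 0.041, Myl6 was at -0.020 and Lpp was at 0.047. On leaving out 1 library, stellate ranges spanned 0 for Lmod1 (-0.22 to 0.068), Cnn3 (-0.15 to 0.11) and Flna (-0.39 to 0.11), and hepatocyte ranges for Vim (-0.059 to 0.0071) and Vcl (-0.19 to 0.021). Low counts limit Acta2, Synpo2, Actg2, Lmod1, Myh11 and Des in hepatocytes.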
